A study of Mus musculus with 4 samples.

Results

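Endothelial cells line the vessels of the kidney, and 10 genes that mark them were followed here in whole kidneys: Pecam1, Cdh5, Kdr, Flt1, Ehd3, Emcn, Plvap, Vwf, Tek and Eng. The genes were given as a list of names, and all 10 were found by symbol among the 54532 genes counted. The kidneys came from wild-type (WT) mice and from mice lacking Zbp1 (Zbp1-KO), with 2 libraries per genotype, and the comparison addresses how the absence of Zbp1, a sensor of Z-form nucleic acids, bears on the kidney in lupus-like disease. Female animals of both genotypes, on a C57BL/6J background, received 500 µL pristane, a hydrocarbon oil, into the peritoneal cavity at the age of 8 weeks, and kidneys were taken 8 months later. Thus no group was free of pristane. The knockout was made with CRISPR-Cas9 by removing exons 2 to 8 of Zbp1 in the germline, so that it is not restricted to endothelium. Whether each library came from 1 animal is not stated, and p-values measure the spread between these libraries.

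Kidney endothelium is a mixture of specialized beds. Glomerular capillaries are fenestrated and filter the blood, peritubular capillaries are fenestrated and take up what the tubules reabsorb, and arterioles, venules and lymphatics have programs of their own. Endothelial survival depends on vascular endothelial growth factor A (VEGF-A), which podocytes and tubules release and which signals through the receptor tyrosine kinases encoded by Kdr and Flt1. A parallel system joins angiopoietins to the receptor Tie2, encoded by Tek, and ligands of the BMP and TGF-beta families signal with the co-receptor endoglin, encoded by Eng. Vascular endothelial cadherin (Cdh5) and PECAM-1 hold cells together at their junctions.

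No difference between the genotypes was detected for any of the 10 endothelial genes. Their log2 fold changes, Zbp1-KO over WT, lay between −0.36 and 0.07, with a median of −0.074, against a median of −0.0061 over all 14908 genes tested. Of the 10 genes, 4 had a value above 0 and 6 a value below 0, where 49.4% of all genes tested were above 0. The edgeR quasi-likelihood test called 0 of 10 at an adjusted p under 0.05, and 0.0134% of all genes were called. At an unadjusted p under 0.05 it also singled out 0 of 10, and 3.88% of all genes passed. The edgeR exact test and the DESeq2 Wald test called 0 of 10 as well. The quasi-likelihood test did not call the deleted gene Zbp1 (log2 fold change −3.64, edgeR adjusted p = 0.999). An absence of calls therefore does not show that levels were equal. For every one of the 10 genes, at least 1 pair of replicates differed by more than the genotype means did. The share of all genes with this property was not computed.

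Total counts per library were 9878776 to 12921925, of which 49.5% to 61.5% fell on mitochondrially encoded genes. The 10 endothelial genes together received 5171 to 7609 counts per library, or 0.118% to 0.153% of the counts outside the mitochondrial genes (95% Wilson intervals at most 0.0070 percentage points wide, counting error only). The targeted gene had fewer reads in both Zbp1-KO libraries (log2 fold change −3.64 ± 0.89 SE, edgeR adjusted p = 0.999). Zbp1 received 94 and 125 reads in the WT libraries against 18 and 0 after its deletion, and the count of 0 allows up to 0.323 CPM (counts scaled to the TMM-adjusted library size). Proximal tubule markers summed to 2433 to 3208 CPM with all 7 detected in every library, and the tissue label matches them. In such bulk samples, fewer endothelial cells and less RNA per endothelial cell cannot be told apart.

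Many endothelial promoters are known to carry binding sites of ETS transcription factors such as ERG and FLI1, whose core is GGAA. RefSeq promoter sequences (GRCm38.p6) were held for 6 of the 10 genes, Kdr, Flt1, Ehd3, Emcn, Tek and Eng. The ETS-type motif AGGAAG was searched on both strands (its reverse complement is CTTCCT) in the 250 bases before the start site. It was found in 3 of the 6, Flt1, Emcn and Eng, and in 29.5% of all 32851 promoters. The GATA-type motif AGATAA (reverse complement TTATCT) was found in 0 of the 6 and in 9.99% of all promoters. Flt1 and Eng are shown because Flt1 had the steadiest level of the 10 genes over the 4 libraries and Eng the most reads. Both windows are written 5′ to 3′ on the strand of the gene and end at the base before the start site. Matches to AGGAAG or its reverse complement are in capitals. That of Flt1 lies at chr5:147726012-147726261 (minus strand) and holds matches at −129 to −124 and −53 to −48 from the start site. That of Eng lies at chr2:32646345-32646594 (plus strand) and holds a reverse-complement match at −52 to −47 and a forward match at −6 to −1.
Flt1: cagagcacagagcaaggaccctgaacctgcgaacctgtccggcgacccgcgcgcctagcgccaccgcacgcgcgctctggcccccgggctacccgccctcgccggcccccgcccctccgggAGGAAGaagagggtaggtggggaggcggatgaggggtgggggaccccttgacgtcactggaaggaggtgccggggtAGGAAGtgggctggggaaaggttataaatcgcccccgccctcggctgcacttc
Eng: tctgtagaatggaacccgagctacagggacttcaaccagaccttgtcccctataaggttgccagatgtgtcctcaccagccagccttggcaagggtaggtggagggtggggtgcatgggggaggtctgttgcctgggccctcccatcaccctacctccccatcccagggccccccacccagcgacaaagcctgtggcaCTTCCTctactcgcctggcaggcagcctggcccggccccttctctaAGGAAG
A match is only a description of these letters, and no binding was measured.

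The VEGF receptors were the most even of the 10 genes. Kdr (ENSMUSG00000062960, chromosome 5, 75932827 to 75978458, minus strand in GENCODE M21, GRCm38) encodes VEGFR2, the main signaling receptor for VEGF-A. It measured 16.6 and 19.2 CPM in WT versus 17.0 and 19.5 CPM in Zbp1-KO. The genotypes interleaved, since each had 1 lower and 1 higher library. The log2 fold change was 0.03 ± 0.26 (SE, n = 2 libraries each, edgeR adjusted p = 0.999), with a 95% interval of 0.687-fold to 1.51-fold. Flt1 (ENSMUSG00000029648, chromosome 5, 147561604 to 147726011, minus strand) encodes VEGFR1, which binds VEGF-A tightly and also gives rise to a soluble decoy form. Its libraries measured 37.1 and 39.8 CPM in WT against 40.3 and 40.3 CPM in Zbp1-KO. Flt1 was the only one of the 10 genes whose genotypes did not overlap, with both Zbp1-KO libraries above both WT libraries, as in 16.0% of all genes tested. The size of that difference was small, with a log2 fold change of 0.07 ± 0.20 (SE) and a 95% interval of 0.774-fold to 1.42-fold. Counts per gene do not separate the soluble from the membrane-bound transcript.

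**Figure D1:**
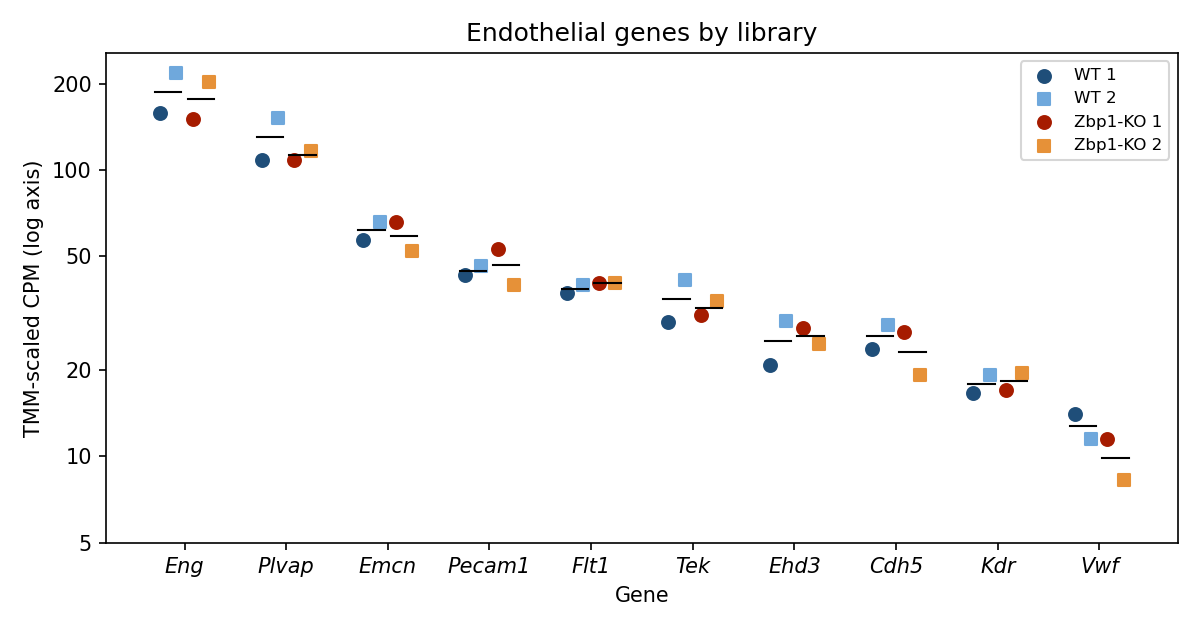
TMM-scaled CPM (log axis) of the 10 endothelial genes in each of the 4 libraries, ordered by mean level, with black bars for the genotype means. The points of WT and Zbp1-KO overlap for every gene except Flt1, where 40.3 and 40.3 CPM in Zbp1-KO lie just above 37.1 and 39.8 CPM in WT.

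Tek and Eng, the other 2 receptors, varied more between replicates than between genotypes. Tek (ENSMUSG00000006386, chromosome 4, 94739289 to 94874976, plus strand), the angiopoietin receptor, measured 29.5 and 41.2 CPM in WT versus 31.3 and 34.8 CPM in Zbp1-KO. Both Zbp1-KO values thus lay between the WT values. Its log2 fold change was −0.099 ± 0.23 (SE), with a 95% interval of 0.658-fold to 1.32-fold. Eng (ENSMUSG00000026814, chromosome 2, 32646595 to 32682669, plus strand), which encodes endoglin, measured 158 and 217 CPM in WT against 150 and 203 CPM in Zbp1-KO. Each genotype again held 1 lower and 1 higher library, and the log2 fold change was −0.089 ± 0.22 (SE), with a 95% interval of 0.677-fold to 1.30-fold. Exons of Eng share 61 bases with Fpgs on the opposite strand, and whether counting used the strand is not stated.

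The junction and surface genes showed the same overlap. Pecam1 (ENSMUSG00000020717, chromosome 11, 106654217 to 106750628, minus strand) encodes CD31, which is also carried by platelets and leukocytes. Its level was 42.9 and 46.0 CPM in WT versus 53.0 and 39.7 CPM in Zbp1-KO. The Zbp1-KO libraries were the highest and the lowest of the 4, and the log2 fold change was 0.06 ± 0.21 (SE), with a 95% interval of 0.758-fold to 1.44-fold. Cdh5 (ENSMUSG00000031871, chromosome 8, 104101625 to 104144511, plus strand), the cadherin of endothelial junctions, measured 23.7 and 28.7 CPM in WT against 27.1 and 19.2 CPM in Zbp1-KO. Zbp1-KO 2 was the lowest library here too. The log2 fold change was −0.17 ± 0.25 (SE), with a 95% interval of 0.602-fold to 1.30-fold. Emcn (ENSMUSG00000054690, chromosome 3, 137341067 to 137432185, plus strand), a sialomucin of capillary and venous endothelium that hinders leukocyte adhesion, measured 56.9 and 65.9 CPM in WT versus 65.8 and 51.9 CPM in Zbp1-KO. Its log2 fold change of −0.059 ± 0.20 (SE) came with a 95% interval of 0.706-fold to 1.30-fold.

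Markers of particular capillary beds were examined next. Ehd3 (ENSMUSG00000024065, chromosome 17, 73804134 to 73832094, plus strand), which encodes an endocytic trafficking protein, is known in the kidney for its expression in glomerular endothelium. It measured 20.9 and 29.8 CPM in WT against 27.9 and 24.7 CPM in Zbp1-KO, so both Zbp1-KO libraries lay between the WT libraries. The log2 fold change was 0.06 ± 0.25 (SE), with a 95% interval of 0.713-fold to 1.52-fold. Podocytes, the neighboring cells of the glomerulus, had a summed marker level of 134 and 136 CPM in WT versus 164 and 191 CPM in Zbp1-KO. Of 7 podocyte markers tested, 6 had a log2 fold change above 0, where 49.4% of all genes did. At an unadjusted p under 0.05, 1 was higher, Synpo (log2 fold change 0.65 ± 0.21 SE, edgeR adjusted p = 0.999), against 1.91% of all genes. None of the podocyte markers was at 0 in any library. Their part in the values of Ehd3 was not tested. Plvap (ENSMUSG00000034845, chromosome 8, 71497765 to 71511752, minus strand) encodes the protein of the diaphragms that span fenestrae, and in the adult kidney it marks peritubular capillaries. It measured 108 and 151 CPM in WT against 109 and 116 CPM in Zbp1-KO. WT 2 stood above the other 3 libraries, and the log2 fold change was −0.21 ± 0.20 (SE), with a 95% interval of 0.636-fold to 1.18-fold.

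Vwf, the least abundant of the 10 genes, had the fold change farthest from 0 with all 4 libraries, though not without WT 1 (−0.21, and −0.44 for Plvap) or without Zbp1-KO 2 (−0.16, and −0.33 for Eng). Vwf (ENSMUSG00000001930, chromosome 6, 125546774 to 125686679, plus strand) encodes von Willebrand factor, which tethers platelets at injured vessels and is strongest in larger vessels. It measured 14.1 and 11.5 CPM in WT versus 11.5 and 8.29 CPM in Zbp1-KO, from 175, 134, 156 and 77 counts. WT 1 was highest and Zbp1-KO 2 lowest, and the middle libraries of the genotypes nearly coincided. The log2 fold change was −0.36 ± 0.33 (SE, edgeR adjusted p = 0.999), with a 95% interval of 0.471-fold to 1.29-fold. Platelets and megakaryocytes also carry Vwf, and the summed level of 7 platelet markers was 60.96 and 35.8 CPM in WT against 29.3 and 40.1 CPM in Zbp1-KO. Of the 5 platelet markers tested, 4 had a log2 fold change below 0, against 50.6% of all genes. Itga2b, which encodes a platelet integrin, was lower in both Zbp1-KO libraries, as were 16.3% of all genes (−0.64 ± 0.25 SE, unadjusted p = 0.0273, edgeR adjusted p = 0.999). At an unadjusted p under 0.05, 1 of the 5 was lower, where 1.97% of all genes were. Gp1bb was at 0 in every library and Gp6 at 0 in Zbp1-KO 2. The part of platelets in the values of Vwf and Pecam1 was not tested. The 95% interval lay within a 2-fold change in either direction for 9 of the 10 endothelial genes, all but Vwf, and within a 1.5-fold change for 4 of the 10, Pecam1, Flt1, Emcn and Eng.

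**Figure D2:**
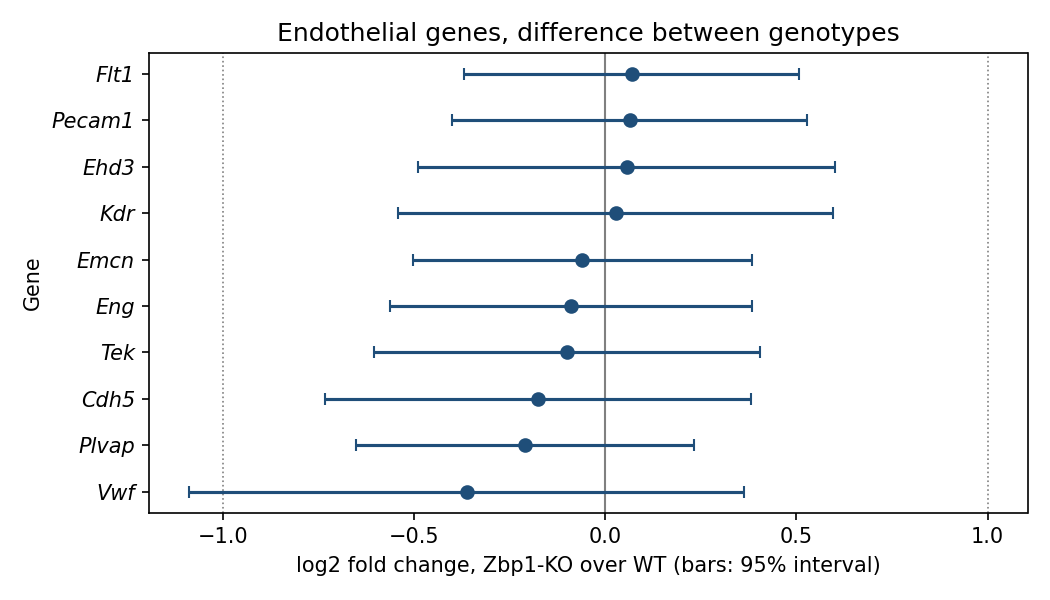
Fitted log2 fold change of each endothelial gene, Zbp1-KO over WT, with its 95% interval from the edgeR quasi-likelihood fit (n = 2 libraries per genotype), and dotted lines at a 2-fold change. All 10 intervals cover 0, and only that of Vwf passes a dotted line, reaching 0.471-fold.

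Across the libraries, the 10 genes did not rise and fall as 1 block. WT 2 was the highest library for 6 genes, Cdh5, Ehd3, Emcn, Plvap, Tek and Eng, and was the lowest for 0. WT 1 was the lowest for 5 genes, and Zbp1-KO 2 for 4. The summed level was 508 and 651 CPM in WT versus 533 and 557 CPM in Zbp1-KO, or 579 ± 101 and 545 ± 17.1 CPM (SD, n = 2 each). Both Zbp1-KO sums therefore fell inside the range of WT. The highest library exceeded the lowest by 1.09-fold for Flt1 to 1.70-fold for Vwf, with a median of 1.40-fold over the 10 genes. The same median was 1.65-fold over the 14352 tested genes with a count in every library. These sets of genes were not matched on level, so the medians cannot show whether the endothelial genes were steadier. Without WT 2 the median log2 fold change of the 10 genes was 0.11, and with any other library left out it lay between −0.20 and −0.019.

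Levels of different genes were compared per kilobase of the principal transcript, as CPM per kb over the 4 libraries. Plvap was highest at 60.9 ± 10.3, followed by Eng at 53.2 ± 9.66 and Emcn at 44.3 ± 5.11 CPM per kb (SD, n = 4 libraries). The ranges of these 3 overlapped, and each gene exceeded the next in 3 of 4 libraries. Pecam1 came next at 13.8 ± 1.73 CPM per kb, apart from its neighbors on both sides in all 4 libraries on this length. Tek, Ehd3, Cdh5 and Flt1 lay between 5.71 and 7.35 CPM per kb with overlapping ranges. Kdr followed at 3.05 ± 0.245 and Vwf at 1.28 ± 0.268 CPM per kb, each clear of the gene above it in every library. Flt1 thus exceeded Kdr, its sister receptor, by 1.87-fold. These gaps depended on the length used. With all annotated exons joined, Cdh5 ranked above Ehd3 and the other ranks stayed, but Emcn went down to 11.1 CPM per kb. Pecam1 at 7.29 was then level with Tek at 7.26 CPM per kb. Cdh5 was at 5.88, Ehd3 at 3.94, Flt1 at 2.92, Kdr at 2.00 and Vwf at 0.705 CPM per kb.

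**Figure D3:**
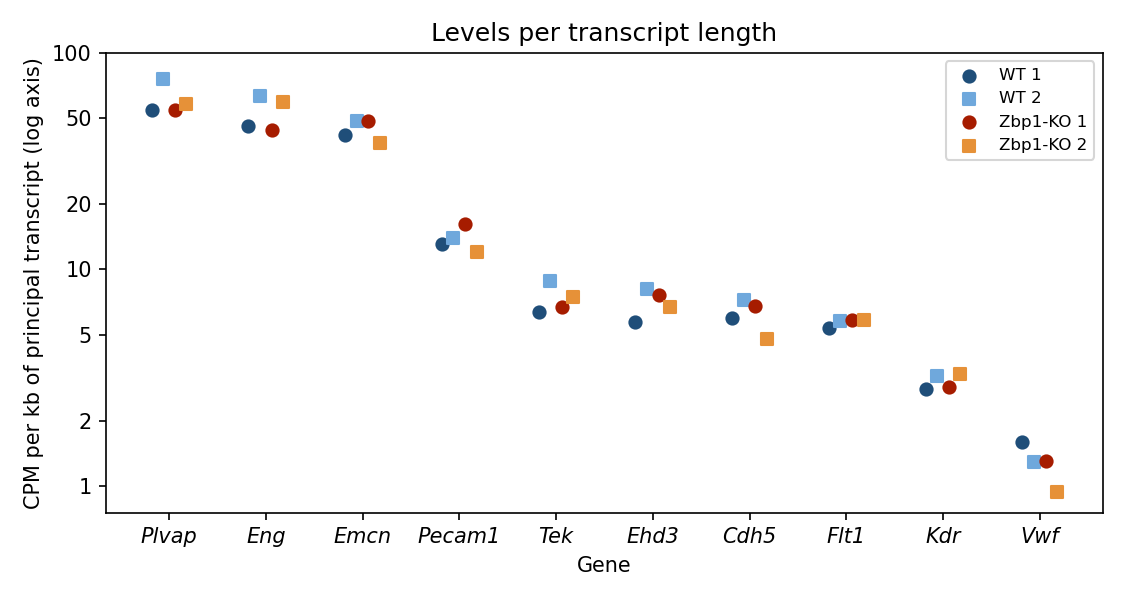
Level of each endothelial gene per kilobase of its principal transcript (CPM per kb, log axis) in each library. Plvap, Eng and Emcn form the upper group at 44.3 to 60.9 CPM per kb on average, Pecam1 stands alone on this length only (with all exons joined it is level with Tek), and Vwf is lowest at 1.28.

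To see whether the wider vascular program behaved likewise, 4 further lists were examined, and none of their genes was called. Among 26 other genes of endothelial cells, the median log2 fold change was 0.0057, with 13 above 0 (49.4% of all genes) and 13 below 0. Both Zbp1-KO libraries lay above both WT libraries for 6 genes and below them for 5, where 16.0% and 16.3% of all tested genes did so. Calcrl, which encodes the receptor for adrenomedullin, measured 12.7 and 15.2 CPM in WT against 21.7 and 15.9 CPM in Zbp1-KO (log2 fold change 0.43 ± 0.29 SE). Fli1, an ETS factor, measured 10.9 and 9.84 CPM in WT versus 7.67 and 7.76 CPM in Zbp1-KO (−0.42 ± 0.35 SE). Gpihbp1, which holds lipoprotein lipase on capillaries, and Icam2, a constitutive adhesion molecule, had log2 fold changes of 0.35 and −0.33 with overlapping libraries. The transcription factor gene Sox7 was the only one of the 26 with an unadjusted p under 0.05 (3.88% of all genes). It measured 4.83 and 2.22 CPM in WT against 0.811 and 0.862 CPM in Zbp1-KO, from 60, 26, 11 and 8 counts. Its log2 fold change was −2.06 ± 0.90 (SE, edgeR adjusted p = 0.999), and −1.41 without WT 1. Sox17 and Sox18, its close relatives, had log2 fold changes of 0.25 and 0.25.

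Ligands and partners of the receptors were likewise not called, and 0 of 26 had an unadjusted p under 0.05, against 3.88% of all genes. Their median log2 fold change was −0.030. Vegfa, the ligand of Kdr and Flt1, measured 124 and 79.9 CPM in WT versus 115 and 123 CPM in Zbp1-KO. WT 2 was its lowest library, whereas WT 2 was the highest for 6 of the 10 endothelial genes. The log2 fold change of Vegfa was 0.23 ± 0.22 (SE). Vegfb, whose product binds VEGFR1, measured 44.3 to 51.2 CPM with a log2 fold change of −0.021. Vegfd, a ligand of VEGFR3, measured 8.77 and 13.1 CPM in WT against 19.6 and 11.5 CPM in Zbp1-KO (0.52 ± 0.35 SE). Of the angiopoietins, Angpt1, the agonist of Tie2, measured 6.27 and 10.1 CPM in WT versus 7.59 and 5.06 CPM in Zbp1-KO. Angpt2, which can oppose it, measured 26.5 and 18.0 CPM in WT against 27.3 and 15.9 CPM in Zbp1-KO. Replicate 1 exceeded replicate 2 in both genotypes, and the log2 fold change was −0.038 ± 0.30 (SE). In the endoglin pathway, Smad5, which transmits BMP signals, and Tgfb1, which encodes TGF-beta 1, had log2 fold changes of 0.47 and −0.32 with overlapping libraries. The Notch and arterial list of 13 genes had a median of 0.12, which turned to −0.11 without Zbp1-KO 1, and 0 of 13 had an unadjusted p under 0.05. Its genes with the largest changes at a mean of at least 5 CPM were Hes1, a target of Notch signaling (0.33), and the ligands Jag1 (0.31), Dll4 (−0.29) and Jag2 (−0.23).

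**Figure D4:**
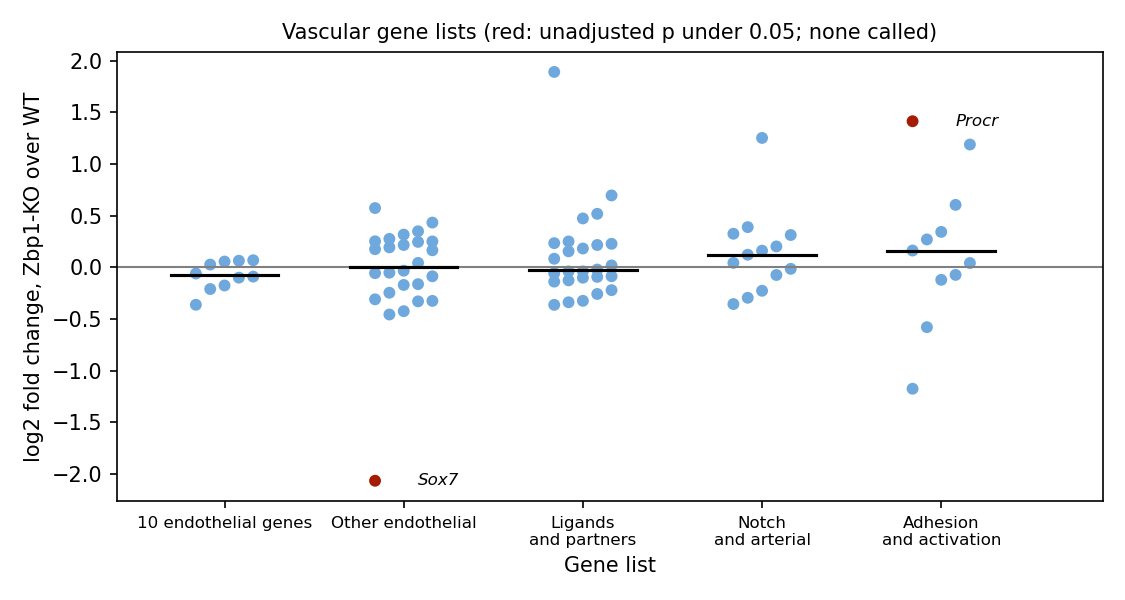
Log2 fold change, Zbp1-KO over WT, of every tested gene of the 10 endothelial genes and of 4 other vascular lists, with black bars for list medians and red points for an unadjusted p under 0.05. The 10 endothelial genes lie between −0.36 and 0.07, and Sox7 (−2.06) and Procr (1.41) are the red points.

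The genes of leukocyte adhesion and coagulation at the vessel wall ranged from −1.17 to 1.41 on the log2 scale. Of 15 genes, 11 were tested, and their median log2 fold change was 0.16, with 7 above 0 (49.4% of all genes) and 4 below 0. None was called. At an unadjusted p under 0.05, 1 was higher in Zbp1-KO and 0 lower, where 1.91% and 1.97% of all genes were. The median was 0.40 without WT 2 and 0.038 without Zbp1-KO 2. Sele and Selp, the selectins of activated endothelium, had 0 to 3 and 0 to 6 counts per library and were below the filter, and this depth could not show a difference. Madcam1 and Il6 had at most 5 and 3 counts and were not tested either. Thbs1, Plat and Ccl2 had log2 fold changes of −0.073, 0.042 and −0.12. The adhesion ligands Icam1 (13.8 and 14.7 CPM in WT versus 19.5 and 12.3 CPM in Zbp1-KO) and Vcam1 (19.9 and 28.2 CPM in WT versus 31.2 and 26.7 CPM in Zbp1-KO) had log2 fold changes of 0.16 and 0.27. Both overlapped between genotypes.

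Procr, which encodes the endothelial protein C receptor of the anticoagulant pathway, measured 2.57 and 2.57 CPM in WT against 7.15 and 6.57 CPM in Zbp1-KO. The replicates of each genotype were close and the genotypes apart, from 32, 30, 97 and 61 counts. The log2 fold change was 1.41 ± 0.53 (SE, unadjusted p = 0.0205, adjusted p = 0.999 in edgeR), and it stayed between 1.34 and 1.47 with any 1 library left out. Edn1, which encodes the vasoconstrictor endothelin-1, also had both Zbp1-KO libraries above both WT libraries, at 3.86 and 1.20 CPM in WT versus 4.203 and 7.43 CPM in Zbp1-KO (1.19 ± 0.68 SE, unadjusted p = 0.105, edgeR adjusted p = 0.999). Of the 11 genes tested, 2 had both Zbp1-KO libraries above both WT libraries and 1 below, where 16.0% and 16.3% of all genes did. Procr, Edn1 and Sox7 were singled out after their values had been seen. Thbd, which encodes thrombomodulin, the partner of protein C activation, measured 14.3 and 18.1 CPM in WT versus 16.7 and 32.9 CPM in Zbp1-KO (log2 fold change 0.60 ± 0.32 SE). Zbp1-KO 2 alone was high. Tfpi, an inhibitor of tissue factor, measured 7.80 and 10.01 CPM in WT against 6.19 and 5.71 CPM in Zbp1-KO (−0.58 ± 0.40 SE). F3, which encodes tissue factor itself, measured 6.59 and 5.56 CPM in WT versus 6.12 and 9.37 CPM in Zbp1-KO (0.34 ± 0.43 SE). Tnfaip3, an NF-kappa B target that restrains inflammatory signaling, had 12.5 CPM in WT 1 and 1.25 to 5.82 CPM in the other libraries (−1.17 ± 0.75 SE). Immediate-early genes, which respond within minutes to stress, summed to 518 and 192 CPM in WT versus 108 and 105 CPM in Zbp1-KO. Of these 10 genes, 8 had an unadjusted p under 0.05 and lower values in Zbp1-KO, where 1.97% of all genes did. None of the 10 was at 0 in any library, and WT 1 was their highest library by sum, as it was for Sox7 and Tnfaip3. Their part in those values was not tested.

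**Figure D5:**
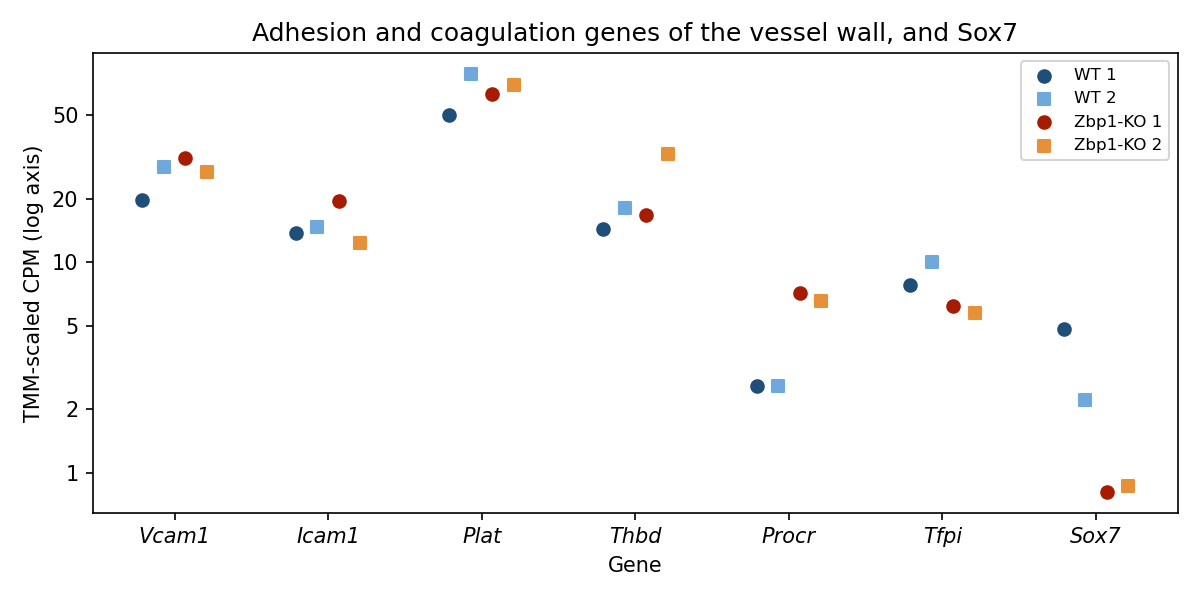
TMM-scaled CPM (log axis) per library of 6 adhesion and coagulation genes and of Sox7. Procr is near 2.57 CPM in both WT libraries and at 6.57 and 7.15 CPM in Zbp1-KO, whereas Sox7 goes from 4.83 and 2.22 CPM in WT to 0.811 and 0.862 CPM in Zbp1-KO.

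Other cell types of the vessel wall and of the interstitium were checked beside these results. The 11 markers of pericytes, mesangial cells and smooth muscle summed to 244 and 300 CPM in WT against 235 and 306 CPM in Zbp1-KO, with Cnn1 at 0 in Zbp1-KO 1. At an unadjusted p under 0.05, 1 of the 11 was higher and 1 lower, where 1.91% and 1.97% of all genes were. Both Zbp1-KO libraries lay above both WT libraries for 2 and below them for 1, against 16.0% and 16.3% of all genes. Rgs5, a pericyte marker, had the higher values in both Zbp1-KO libraries (25.01 and 41.8 CPM in WT versus 54.9 and 45.6 CPM in Zbp1-KO). Its unadjusted p was 0.0396 and its adjusted p 0.999 in edgeR. Itga8, a mesangial marker, had a lower mean in Zbp1-KO. Its libraries overlapped, at 19.1 and 36.2 CPM in WT against 8.55 and 21.3 CPM in Zbp1-KO. The unadjusted p of Itga8 was 0.0465 and the adjusted p 0.999 in edgeR. Lymphatic markers summed to 51.6 and 43.5 CPM in WT versus 39.3 and 54.6 CPM in Zbp1-KO. Of these, 0 of 8 tested had an unadjusted p under 0.05, against 3.88% of all genes. Lyve1, a commonly used marker among these, had only 23, 10, 20 and 0 counts. Myeloid markers, which include cells that carry PECAM-1, summed to 332 and 212 CPM in WT against 311 and 307 CPM in Zbp1-KO. Of 7 myeloid markers tested, 6 had a log2 fold change above 0 (49.4% of all genes). Fibroblast markers summed to 679 and 504 CPM in WT versus 350 and 547 CPM in Zbp1-KO. All 6 fibroblast markers tested were below 0 (50.6% of all genes), with overlapping libraries. T cell markers summed to 13.1 and 6.76 CPM in WT against 23.0 and 17.9 CPM in Zbp1-KO. All 6 T cell markers tested had a log2 fold change above 0 (49.4% of all genes). Both Zbp1-KO libraries exceeded both WT libraries for 3 of the 6 (16.0% of all genes). At an unadjusted p under 0.05, 1 of the 6 was higher, where 1.91% of all genes were. Red cell markers summed to 2549 and 819 CPM in WT versus 818 and 2121 CPM in Zbp1-KO, with 1 high and 1 low library in each genotype. Fat cell markers summed to 17.5 and 29.5 CPM in WT against 115 and 101 CPM in Zbp1-KO. Here 5 of 5 tested were higher at an unadjusted p under 0.05 (1.91% of all genes), with 1 called (0.0134% of all genes). The part of any of these cell types in the endothelial values was not tested.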

How the data were processed

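RNA of 4 kidney libraries (2 WT, 2 Zbp1-KO) was measured. The authors enriched polyadenylated RNA, prepared TruSeq libraries for 2 × 150 nt sequencing and used Trimmomatic for trimming, HISAT2 for alignment and featureCounts for counting unique pairs. The submitters' processing notes name the build mm10. Annotation release, versions and strand setting of the counting are not given in the sources used here. The deposited values are raw counts per Ensembl gene, not normalized. Of 54532 IDs, 54495 matched GENCODE M21 (GRCm38).

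After filterByExpr (at least 10 counts, total at least 15) and TMM scaling, the two-sided quasi-likelihood test of edgeR 4.0.16 in R 4.3.3 was applied, with genotype as the only term and Benjamini-Hochberg adjustment over all 14908 genes tested (calls at an adjusted p under 0.05). Fold changes were fitted with a prior count of 0.125. SE was taken from the size of the log2 fold change over the root of its F statistic, and unadjusted 95% intervals use the t quantile of the fit. A count of 0 allows up to 3 counts. Same-numbered libraries gave no sign of pairing (correlation of deviations over genes 0.0040). Alternatives were other scalings (DESeq2 1.42.0 size factors, upper quartile), all genes with at least 1 count, the exact test, the DESeq2 Wald test, the replicate block, no mitochondrial genes, and each library left out. The genes and lists were chosen with earlier results of these data known. Named were all 10 genes, ligands of their receptors with at least 5 CPM, and per list the called genes and the 4 with the largest change at a mean of at least 5 CPM. Others were named after their values were seen. A further gene of the adhesion list, beyond the 15 counted, is not reported here.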

Additional observations from a re-analysis of the deposited data

How the results depend on the processing

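The calls of the 10 endothelial genes stayed at 0 under all 11 alternatives, with 0 at an unadjusted p under 0.05 in each. Of 110 values of single endothelial genes under alternatives, 98 kept their sign and 12 did not, all 12 with 1 library left out. Fits with 1 library in a genotype assume that it varies like the other genotype. There the log2 fold changes ran from the lower to the upper value given: Pecam1 −0.17 to 0.25, Cdh5 −0.46 to 0.041, Kdr −0.079 to 0.13, Ehd3 −0.18 to 0.33, Emcn −0.25 to 0.092, Plvap −0.44 to 0.046, Tek −0.33 to 0.15, Eng −0.33 to 0.15. With no change of sign, they ran for Flt1 0.012 to 0.11 and Vwf −0.63 to −0.16. For other named genes, none called, the ranges were Vegfa −0.059 to 0.57, Vegfb −0.13 to 0.081, Angpt1 −0.70 to 0.011, Angpt2 −0.49 to 0.28, Gpihbp1 −0.12 to 0.71, Icam2 −0.72 to 0.20, Tgfb1 −0.82 to 0.050, Hes1 −0.12 to 0.66, Dll4 −0.94 to 0.12, Jag2 −0.48 to 0.059, Tnfaip3 −2.64 to 0.14, and, with no change of sign, Vegfd 0.071 to 0.84, Calcrl 0.18 to 0.63, Smad5 0.012 to 0.80, Jag1 0.13 to 0.51, Thbd 0.038 to 1.01, F3 0.0018 to 0.62. The median of the 10 genes ran from −0.20 to 0.11 with 1 library left out, 0.11 being the value without WT 2, and from −0.084 to −0.072 otherwise.

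Over all genes, the count of 2 became 41 with all genes of at least 1 count, 14 with the exact test, 9 with the DESeq2 Wald test and 4 without mitochondrial genes, and 0 to 37 with 1 library left out (0 without WT 1, 20 without WT 2, 8 without Zbp1-KO 1 and 37 without Zbp1-KO 2). The cause was not tested. With the replicate block it was 11, with 0 of the 10 endothelial genes called and a median of −0.073. Zbp1 was called with all genes of at least 1 count (log2 fold change −3.65, edgeR adjusted p = 2.86e-05) and with the exact test (−3.67, edgeR adjusted p = 0.0110), over a range of adjusted p in edgeR and DESeq2 of 2.86e-05 to 1.00. Leave-one-out values of Zbp1 ran from −4.83, a bound with the count of 0 set to 3, to −2.78, and Zbp1 was called without Zbp1-KO 1 (edgeR adjusted p = 0.00156) and without Zbp1-KO 2 (edgeR adjusted p = 0.0449). Scaled without mitochondrial genes, the summed level was 1190 and 1525 CPM in WT versus 1246 and 1304 CPM in Zbp1-KO, from the smaller library sizes. With 1 library left out, that of Zbp1-KO 2 ran from 524 to 575 CPM.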
